A study of Mus musculus with 5 samples.

Results

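Ion channel genes encode the pores, and the auxiliary subunits of those pores, that let potassium, sodium, calcium and chloride cross a cell's membranes. The set described here held every gene of the deposited expression table whose symbol begins with the letters of a channel family: potassium channels (Kcn), sodium channels (Scn), calcium channels (Cacn), transient receptor potential channels (Trp), chloride channels (Clcn and Clic), P2X receptors (P2rx), Piezo, anoctamins (Ano), pacemaker channels (Hcn), volume-regulated anion channels (Lrrc8), and the calcium release channels of the endoplasmic reticulum (Itpr and Ryr). This gave 63 of the 12621 genes in the table. In 4 of them only the letters match: Trp53 and Trp63 encode transcription factors, Trpc4ap a ubiquitin ligase adaptor and Kcnq1ot1 a long noncoding RNA, and these 4 are described apart from the 59 channel genes. No ryanodine receptor (Ryr) gene was among the 63, and channel genes outside the table were not analysed here.

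The libraries came from messenger RNA of mouse mesenchymal stem cells, cells of connective tissue that grow attached to plastic and can turn into bone, cartilage or fat cells. There were 2 wild-type libraries, named C1 and SE in the table, and 3 libraries of cells lacking TSG-6, the hyaluronan-binding protein encoded by Tnfaip6, named C1, C2 and SE. All 5 samples carry the same strain label, Balb/c (C.129S6), no agent is named for any of them, and the labels give neither the tissue the cells were taken from, nor the animals' age, nor the design of the deleted allele. What C and SE stand for is not stated, and no label ties a library to an animal or a culture. The short design text counts 2 biological replicates for each genotype, although 3 knockout libraries are present. The p-values therefore reflect the spread among these 5 libraries, part of which may be technical.

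Potassium channels hold the membrane at negative voltage and so set the driving force for calcium entry. Calcium enters through voltage-gated calcium channels, transient receptor potential channels, Piezo channels and ATP-gated P2X receptors, is released from the endoplasmic reticulum through IP3 receptors, and in turn opens calcium-activated potassium and chloride channels. Volume-regulated anion channels, built from LRRC8 proteins, let chloride and small organic solutes leave swollen cells. In stromal cells, channels of these families are known for parts in proliferation, volume control, mechanical sensing and differentiation.

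Between 13605555 and 26658725 reads per library fell on the genes of the table, as recovered from the deposited values. Each value below is a normalised count on the CPM scale, and where 2 and then 3 values follow each other they are wild-type C1 and SE, then knockout C1, C2 and SE. A mean is given ± SD, over 2 wild-type or 3 knockout libraries, and a log2 fold change (knockout over wild type, on the value plus 0.5) ± its standard error. Tnfaip6 itself was at 6.04 and 3.21 in wild-type and 1.65, 2.38 and 1.36 in knockout libraries, below both wild-type libraries in every knockout library, with an adjusted p of 0.0578. Of 14 mesenchymal stem cell markers 12 were measured (Thy1 and Lepr were not analysed here), and their summed level ran from 3184 to 5835 in the wild type and from 17726 to 33862 in the knockout. Among them Cxcl12, Col1a1 and Col1a2 were called higher and Nt5e, Cd44 and Ly6a lower. The 3 higher genes made up most of each knockout sum, with Cxcl12 alone at 12788, 14071 and 8179 in knockout libraries. The rise of the sum therefore does not describe the other markers. Markers of other cell types also differed between the genotypes: 6 of 13 neuronal markers summed to 225 to 323 in the wild type and 3.06 to 6.81 in the knockout (4 called lower, with Nefl and Nefm at 0 in every knockout library, and Syn2 called higher), and 3 of 8 epithelial and mesothelial markers to 321 to 368 and 2.51 to 5.88 (all 3 called lower). In the other direction, 7 of 8 adipocyte markers summed to 51.1 to 79.2 and 4387 to 10581 (all 7 called higher), 8 of 9 smooth muscle and pericyte markers to 161 to 206 and 3214 to 6676 (6 called higher), and 3 of 12 blood cell markers to 3.11 to 5.19 and 38.8 to 46.8 (2 called higher, with Ptprc, Itgam and Adgre1 not analysed here). Skeletal and heart muscle had 2 of 13 markers measured, at 2.90 to 5.71 and 0.502 to 1.93 in sum, with Acta1 called higher and Tnnt2 lower. The 2 of 9 glial markers measured, Mbp and S100b, summed to 1.71 to 2.68 and 7.52 to 9.16 and were both called higher. Of 8 endothelial markers only Vwf was measured and was not called, at 0 to 0.0405 and 0.376 to 3.798. The part of these marker differences in the channel results was not tested, and in bulk RNA fewer cells of a type and less RNA per cell cannot be told apart.

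Of the 63 genes 61 could be tested, 57 of them channel genes, because Kcnk5 and Kcnj15 did not reach a value of 1 in 2 libraries. A gene was called when its adjusted p from limma, taken over all 12484 tested genes, was under 0.05. In the knockout 14 of the 61 genes (23.0%) were called higher, against 17.2% of all tested genes, and 17 (27.9%) were called lower, against 17.1%. All 14 higher genes and 16 of the 17 lower ones were channel genes. The median log2 fold change, knockout over wild type, was 0.10 over the 61 genes and -0.09 over all tested genes. Groups did not overlap, with every knockout library above or below both wild-type libraries, for 19 genes on the higher side (31.1%, against 28.0% of all tested genes) and 20 on the lower side (32.8%, against 30.7%), which is near the background. All 31 called genes had groups that did not overlap. Of the called genes 12 had reached the value of 1 in libraries of one genotype only, 7 in wild-type and 5 in knockout libraries, so that passing the filter already required a difference. The 5 were Kcnn1, Kcnc2, Kcnk3, Kcnh1 and Scn2a. Every tested gene of the set with this pattern was called. The share of such genes among all tested genes was not worked out, so the called shares above give no result about the set. The called genes lay on 15 chromosomes, and the smallest ratio of group means among them was 2.53. Some fits cited below for single genes left out a wild-type library or both SE libraries, which leaves 1 wild-type library. Their adjusted p-values rest on the spread among knockout libraries alone. Without a wild-type library the fewest genes were called over the whole table, so a call lost there is not particular to that gene.

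**Figure D1:**
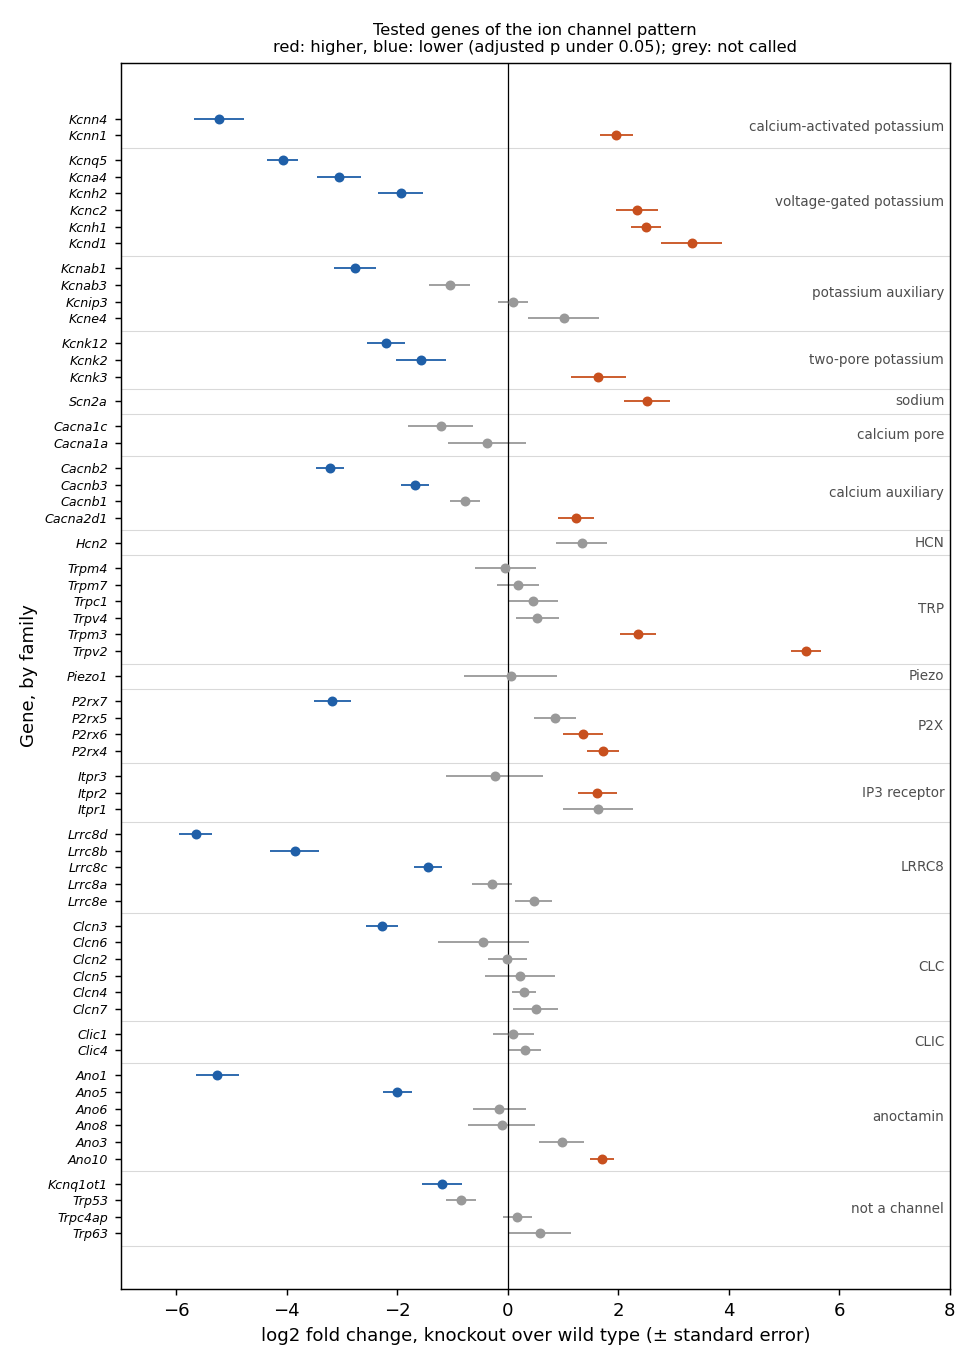
Log2 fold change of 60 tested genes, knockout over wild type (points, with bars for the standard error of the limma fit), grouped by channel family. Trpv2 lies farthest to the right at 5.40 and Lrrc8d farthest to the left at -5.65, and 30 genes are grey because they did not pass the test.

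Among potassium channels, 15 tested genes split into 5 higher, 7 lower and 3 not called. Kcnn4 had the highest wild-type level of them per kilobase. It encodes the intermediate-conductance potassium channel that opens when calcium binds its calmodulin subunit, and lies at chr7:24370263-24386690 on the plus strand (GRCm38, protein-coding gene ENSMUSG00000054342). Its normalised counts were 304 and 217 in wild-type and 6.44, 10.97 and 3.58 in knockout libraries. Both wild-type libraries stood far above all 3 knockout libraries, with no overlap, and the mean fell from 260.2 ± 61.8 (SD, n = 2) to 6.999 ± 3.73 (SD, n = 3), a 37.2-fold lower level (log2 fold change -5.22 ± 0.46, adjusted p = 0.000427). Its relative Kcnn1, a small-conductance calcium-activated channel, moved the other way from a very low level, 0.309 ± 0.150 in wild-type and 2.66 ± 0.521 in knockout libraries. That was 8.64-fold higher (log2 fold change 1.97 ± 0.29, adjusted p = 0.00351), 13.1-fold when wild-type SE was left out, and the call was lost without wild-type C1 (adjusted p = 0.0555; range 4.31e-05 to 0.0555 over 17 alternatives). For Kcnn4 and for Trpv2, the gene with the largest rise, the 250 bases before the RefSeq start site (GRCm38.p6, plus strand, chr7:24370013-24370262 and chr11:62574236-62574485) are shown so that the starts of a strongly lower and a strongly higher gene can be compared, with matches to a GC box, GGGCGG on either strand, in capitals.
Kcnn4: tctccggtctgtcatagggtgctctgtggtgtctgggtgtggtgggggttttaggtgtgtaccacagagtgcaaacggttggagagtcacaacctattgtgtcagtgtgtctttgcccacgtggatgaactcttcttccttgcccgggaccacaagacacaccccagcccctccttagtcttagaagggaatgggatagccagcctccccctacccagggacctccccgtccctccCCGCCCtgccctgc
Trpv2: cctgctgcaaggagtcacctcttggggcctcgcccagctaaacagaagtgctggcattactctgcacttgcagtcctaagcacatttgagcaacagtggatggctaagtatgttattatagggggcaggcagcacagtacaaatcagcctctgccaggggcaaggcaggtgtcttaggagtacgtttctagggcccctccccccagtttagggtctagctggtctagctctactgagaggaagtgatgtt
The Kcnn4 window holds 1 GC box near its 3′ end and the Trpv2 window none.

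Voltage-gated potassium channels divided evenly, with 3 of 6 higher and 3 lower. Kcnd1, a fast-inactivating A-type channel gene on the X chromosome (chrX:7822289-7838280), was at 1.01 and 2.02 in wild-type and 12.8, 13.8 and 39.1 in knockout libraries. All knockout libraries were above the wild type and knockout SE stood apart as the highest. The knockout mean was 14.5-fold higher (log2 fold change 3.33 ± 0.55, adjusted p = 0.00518), and 8.78-fold without knockout SE. Kcnc2, a high-voltage delayed rectifier (chr10:112271121-112467024), was at 0.851 and 0.363 in wild-type and 4.14, 7.15 and 4.08 in knockout libraries. Its groups did not overlap, at low levels in both. The difference was 8.44-fold (log2 fold change 2.34 ± 0.38, adjusted p = 0.00458), 14.1-fold without wild-type C1, and without wild-type SE the adjusted p was 0.0511 (range 6.44e-06 to 0.0511 over 17 alternatives). Kcnh1, a channel of the ether-à-go-go family, had 2 reads over the wild-type libraries and 159 over the knockout ones, a ratio of read rates of 56.7 with a 95% interval of 15.4 to 472 (exact, for counting error only; adjusted p = 0.00101). Both wild-type reads were in SE.

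On the lower side of the voltage-gated group, Kcna4, another A-type channel (chr2:107290639-107298502), was at 3.36 and 7.25 in wild-type and 0, 0.303 and 0.215 in knockout libraries. Knockout C1 had no read and wild-type SE was the highest library. The level was 30.8-fold lower (log2 fold change -3.05 ± 0.39, adjusted p = 0.00196), and this ratio ran from 19.5 without wild-type SE to 49.4 without knockout C2. Kcnq5, a slowly opening M-type channel (chr1:21398403-21961942), was at 6.53 and 9.58 in the wild type and had no read in any knockout library. With 3 reads in each knockout library as the limit that a count of 0 allows, it was at least 51.5-fold lower (log2 fold change -4.07 ± 0.28, adjusted p = 0.000180). Kcnh2, an ERG-type channel that repolarises heart muscle cells, was at 3.13 ± 1.73 in wild-type and 0.414 ± 0.229 in knockout libraries, which is 7.56-fold lower (adjusted p = 0.0124), and 4.60-fold without wild-type SE. Of the auxiliary subunits, Kcnab1, a cytoplasmic beta subunit of voltage-gated channels (chr3:65109384-65378223), was at 29.7 and 26.6 in wild-type and 3.29, 2.61 and 5.80 in knockout libraries. The wild-type libraries were close together, the knockout libraries lay far below them, and the level was 7.21-fold lower (log2 fold change -2.77 ± 0.38, adjusted p = 0.00253). Kcnab3, Kcnip3 and Kcne4 were not called, with group means between 0.802 and 3.74, although the groups of Kcnab3 did not overlap. Kcnab3, also a beta subunit, passed the threshold without knockout SE (adjusted p = 0.0364; range 0.0326 to 0.378 over 17 alternatives).

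The tandem-pore potassium channels, which carry resting current, also moved both ways. Kcnk12, a subunit of the halothane-inhibited type (chr17:87745801-87797994), was at 17.3 and 27.7 in wild-type and 5.08, 3.44 and 4.80 in knockout libraries. The groups were well apart, and the level was 5.06-fold lower (log2 fold change -2.20 ± 0.35, adjusted p = 0.00426). Kcnk2, the stretch- and lipid-sensitive channel TREK (chr1:189207930-189402273), was at 13.9 and 10.98 in wild-type and 5.17, 1.97 and 5.30 in knockout libraries, lowest in knockout C2. It was 3.000-fold lower (log2 fold change -1.57 ± 0.46, adjusted p = 0.0382), a call lost without wild-type C1 (adjusted p = 0.175), without wild-type SE (0.110) and without knockout C2 (0.0725; range 0.0119 to 0.175 over 18 alternatives). An antisense gene overlaps 12.2% of the exon bases of Kcnk2, and whether counting used the strand is not stated. Kcnk3, an acid-sensitive channel, was higher, 0.266 ± 0.0828 in wild-type and 2.13 ± 1.25 in knockout libraries, with adjusted p = 0.0441. Its call was lost without wild-type C1 (adjusted p = 0.143), without wild-type SE (0.189) and under quantile normalisation (0.0746; range 0.00358 to 0.189 over 14 alternatives), and it failed the filter without knockout C2 or knockout SE. The untested Kcnk5, also acid-sensitive, was at 2.39 and 0.984 in the wild type and had no knockout read, and the untested inward rectifier Kcnj15 had 2 wild-type and 47 knockout reads, a ratio of read rates of 16.8 with a 95% interval of 4.39 to 142.

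**Figure D2:**
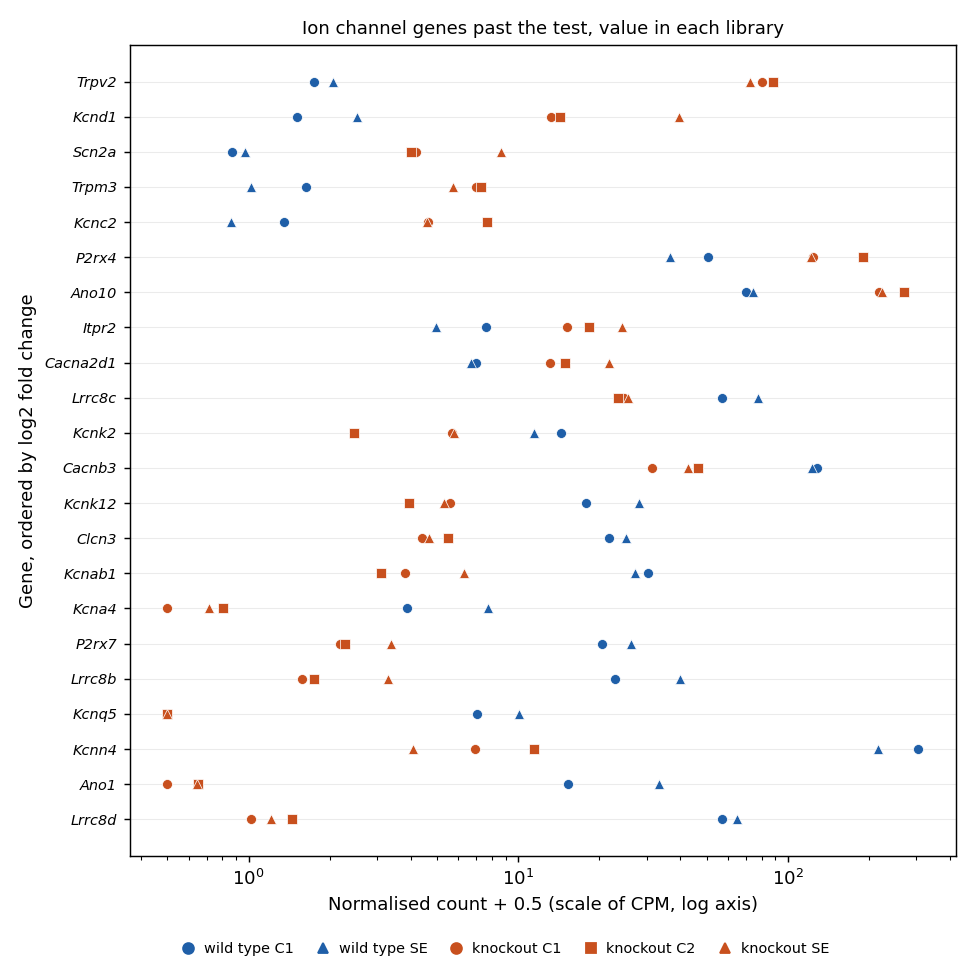
Normalised count plus 0.5 in each of the 5 libraries (log axis) for 22 called channel genes with a group mean of at least 5, ordered by log2 fold change; blue marks wild type, red marks knockout, and the marker shape gives the library. The blue and red points of each gene do not overlap, and the gap is widest for Trpv2 at the top and Lrrc8d, Ano1 and Kcnn4 at the bottom.

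Scn2a, a pore-forming sodium channel subunit best known from neurons (chr2:65620771-65767447), was at 0.365 and 0.466 in wild-type and 3.67, 3.52 and 8.17 in knockout libraries. Knockout SE was the highest library and both wild-type libraries were below 1. The knockout mean was 12.3-fold higher (log2 fold change 2.52 ± 0.41, adjusted p = 0.00483). Scn2a was also the gene of the set nearest to Tnfaip6 on chromosome 2, at a distance of 13.6 Mb.

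Of the voltage-gated calcium channel genes, the 2 pores were not called and 3 of 4 auxiliary subunits were. Cacna1c, the L-type pore, was at 5.57 ± 2.09 in wild-type and 2.47 ± 2.10 in knockout libraries, and Cacna1a, the P/Q-type pore, at 8.17 ± 3.47 in wild-type and 7.81 ± 7.58 in knockout libraries, with a wide spread in the knockout (adjusted p = 0.154 and 0.720). Without knockout SE, the highest knockout library of both, Cacna1c passed the threshold on the lower side (adjusted p = 0.00786; range 0.00786 to 0.483 over 17 alternatives). The beta subunits, which sit on the inner face of the channel and bring the pore to the cell surface, were lower or not called. Cacnb3 (chr15:98630840-98644529) was at 128 and 122.9 in wild-type and 30.8, 46.2 and 42.1 in knockout libraries. Per kilobase it had the highest level of the 3 beta subunits in both genotypes, its groups were far apart, and it was 3.16-fold lower (log2 fold change -1.67 ± 0.25, adjusted p = 0.00371). Cacnb2 had 186 reads over the wild-type libraries and 1, in C2, over the knockout ones, a ratio of read rates of 261 with a 95% interval of 46.2 to 10354 (adjusted p = 0.000292). Cacnb1 was at 8.35 and 7.93 in wild-type and 4.66, 4.24 and 4.80 in knockout libraries and was not called (adjusted p = 0.0741), although its groups did not overlap. The extracellular subunit Cacna2d1 (chr5:15934691-16374511), the binding site of gabapentin, moved the other way, at 6.48 and 6.22 in wild-type and 12.6, 14.4 and 21.3 in knockout libraries. Every knockout library was above the wild type, knockout SE most, and the level was 2.53-fold higher (log2 fold change 1.24 ± 0.33, adjusted p = 0.0285). That call was lost without wild-type C1 (adjusted p = 0.119), without wild-type SE (0.135) and without knockout C2 (0.0755; range 0.00117 to 0.135 over 18 alternatives).

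Among the transient receptor potential channels, 2 of 6 genes were higher and 4 were not called. Trpv2, a calcium-permeable channel of the vanilloid subfamily (chr11:62574486-62600515, plus strand, protein-coding gene ENSMUSG00000018507), was at 1.26 and 1.55 in wild-type and 80.1, 88.1 and 72.0 in knockout libraries. The knockout libraries were tightly grouped and far above both wild-type libraries. Its mean rose from 1.41 ± 0.210 (SD, n = 2) to 80.1 ± 8.05 (SD, n = 3), which was 57.0-fold (log2 fold change 5.40 ± 0.27, adjusted p = 7.21e-05) and the largest fitted change on the higher side among the 61 genes. Trpm3, opened by heat and by the steroid pregnenolone sulfate (chr19:22139046-22995410), was at 1.13 and 0.518 in wild-type and 6.49, 6.77 and 5.23 in knockout libraries. Its knockout values were alike and the 2 wild-type values low, and the ratio was 7.46-fold (log2 fold change 2.36 ± 0.33, adjusted p = 0.00270), or 11.9 without wild-type C1. The other 4 were not called: Trpm7, a channel fused to a kinase and permeable to magnesium, at 59.6 ± 7.30 in wild-type and 72.7 ± 34.8 in knockout libraries, the calcium-activated Trpm4 at 13.8 ± 7.42 in wild-type and 13.8 ± 8.34 in knockout libraries, and Trpc1 and Trpv4 with means between 1.90 and 4.60. Piezo1, the stretch-activated channel, was at 23.3 and 70.3 in wild-type and 22.3, 25.5 and 131 in knockout libraries, with the highest value in both genotypes in the SE library and overlapping groups. Exons of Ctu2, on the opposite strand, cover 24.6% of the exon bases of Piezo1, so its count is uncertain. Hcn2, a pacemaker channel, was at 1.37 ± 0.333 in wild-type and 4.60 ± 2.64 in knockout libraries (adjusted p = 0.0630) with groups that did not overlap, and passed the threshold without knockout C1 (adjusted p = 0.0395; range 0.00646 to 0.256 over 17 alternatives).

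The P2X receptors open to extracellular ATP. P2rx7, which needs high ATP and is known for opening a large pore (chr5:122643911-122691432, gene ENSMUSG00000029468), was at 19.9 and 25.6 in wild-type and 1.69, 1.78 and 2.87 in knockout libraries. Both wild-type values were far above the knockout ones, with no overlap, and the level was 10.8-fold lower (log2 fold change -3.17 ± 0.34, adjusted p = 0.000902). P2rx4, which opens at low ATP and also sits in lysosomes (chr5:122707544-122729738, gene ENSMUSG00000029470), was at 50.02 and 36.1 in wild-type and 124, 189.6 and 122 in knockout libraries. Here every knockout library was above the wild type, C2 most, by 3.37-fold (log2 fold change 1.73 ± 0.29, adjusted p = 0.00554). P2rx6 was higher from a low level, at 1.42 ± 0.688 in wild-type and 4.37 ± 1.12 in knockout libraries (adjusted p = 0.0297), 4.69-fold rather than 3.08-fold without wild-type C1. Its call was lost without wild-type C1 (adjusted p = 0.0634), without wild-type SE (0.227), without knockout C2 (0.0820) and without both SE libraries (0.104; range 0.0110 to 0.227 over 17 alternatives), and exons of Slc7a4, on the opposite strand, overlap 13.9% of its exon bases. P2rx5 was at 4.11 ± 0.544 in wild-type and 8.17 ± 2.87 in knockout libraries and was not called (adjusted p = 0.127), although its groups did not overlap.

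P2rx7 and P2rx4 are next to each other on chromosome 5, on the same strand, with 16.1 kb and no protein-coding gene between them, and they changed in opposite directions (log2 fold change -3.17 and 1.73). The bases before their RefSeq start sites (GRCm38.p6, plus strand, chr5:122643677-122643910 and chr5:122707294-122707543) are given because these starts belong to neighbours with opposite changes, with AP-1 matches, TGANTCA, and GC boxes in capitals.
P2rx7: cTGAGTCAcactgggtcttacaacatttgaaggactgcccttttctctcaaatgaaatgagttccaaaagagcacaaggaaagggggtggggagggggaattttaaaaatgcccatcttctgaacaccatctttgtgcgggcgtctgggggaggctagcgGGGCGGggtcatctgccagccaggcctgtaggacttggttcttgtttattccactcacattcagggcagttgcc
P2rx4: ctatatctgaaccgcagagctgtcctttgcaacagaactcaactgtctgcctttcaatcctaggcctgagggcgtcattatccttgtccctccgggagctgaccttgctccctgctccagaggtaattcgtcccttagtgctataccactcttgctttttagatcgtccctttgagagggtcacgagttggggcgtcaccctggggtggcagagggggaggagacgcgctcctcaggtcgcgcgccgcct
For P2rx7 the last 16 bases before the RefSeq start lie inside the annotated gene and are not printed. The P2rx7 window begins with an AP-1 match. It holds 2 GC boxes when the unprinted bases are counted, of which 1 lies wholly in the printed part. The P2rx4 window holds neither motif.

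IP3 receptors release calcium from the endoplasmic reticulum after phospholipase C has made IP3. Itpr2 (chr6:146108299-146502223) was at 7.09 and 4.45 in wild-type and 14.7, 17.9 and 23.7 in knockout libraries. All knockout libraries exceeded both wild-type ones and the level was 3.25-fold higher (log2 fold change 1.63 ± 0.35, adjusted p = 0.0139), a call lost without wild-type SE (adjusted p = 0.0996; range 9.68e-05 to 0.0996 over 18 alternatives). Itpr1 was at 8.22 ± 4.12 in wild-type and 30.2 ± 23.9 in knockout libraries and Itpr3 at 19.96 ± 11.5 in wild-type and 23.4 ± 26.2 in knockout libraries, and neither was called (adjusted p = 0.0906 and 0.863). The groups overlapped for Itpr3 but not for Itpr1. Itpr1 passed the threshold in 3 of 18 alternatives, among them DESeq2 (adjusted p = 0.0100) and the fit with the C or SE name as a term (0.000747).

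Volume-regulated anion channels contain the essential subunit LRRC8A together with LRRC8B, C, D or E, which set what the pore lets through. Lrrc8d (chr5:105699969-105832436, gene ENSMUSG00000046079), the subunit known for passing larger organic solutes, was at 56.7 and 64.1 in wild-type and 0.517, 0.946 and 0.717 in knockout libraries. Its level was about even within each genotype, far lower in the knockout, and the ratio of means was 83.2-fold (log2 fold change -5.65 ± 0.31, adjusted p = 8.51e-05), the most negative log2 fold change of the 61 genes with 0.5 added to each value. Lrrc8b (chr5:105415775-105490074, gene ENSMUSG00000070639) was at 22.4 and 39.5 in wild-type and 1.08, 1.25 and 2.79 in knockout libraries. Both SE libraries were the highest of their genotype, the groups did not overlap, and the level was 18.1-fold lower (log2 fold change -3.86 ± 0.45, adjusted p = 0.00128). Lrrc8c (chr5:105519388-105613018, gene ENSMUSG00000054720) was at 56.4 and 77.4 in wild-type and 24.2, 22.9 and 25.0 in knockout libraries. Its knockout libraries were nearly equal and below both wild-type ones, by 2.79-fold (log2 fold change -1.44 ± 0.25, adjusted p = 0.00611), and the call was lost without wild-type SE (adjusted p = 0.0678; range 1.96e-05 to 0.0678 over 18 alternatives). Lrrc8a was not called, at 5.41 ± 2.09 in wild-type and 4.25 ± 0.910 in knockout libraries, and neither was Lrrc8e, at 5.91 ± 1.24 in wild-type and 8.48 ± 2.17 in knockout libraries. The annotated gene Gm28035 shares 66.2% of the exon bases of Lrrc8a on the same strand, so its count is uncertain. Summed over the 5 subunits, the normalised counts were 147 and 192 in wild-type and 38.6, 34.99 and 44.0 in knockout libraries.

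The 3 lower subunit genes lie in a row on chromosome 5, all on the plus strand, with 29.3 kb between Lrrc8b and Lrrc8c and 87.0 kb between Lrrc8c and Lrrc8d and no protein-coding gene between them, whereas Lrrc8a and Lrrc8e are on chromosomes 2 and 8. Around each of the 3, the median log2 fold change of the nearest 50 tested genes was -0.31, against -0.09 over all tested genes. Only the gene itself was left out of its window, so the 3 windows share genes, the other lower subunits among them. Their RefSeq promoter windows (GRCm38.p6, plus strand, chr5:105415525-105415774, chr5:105519221-105519387 and chr5:105699719-105699968) are printed so that neighbours that fell together can be compared, with the same motifs in capitals. For Lrrc8c the last 83 bases before the RefSeq start lie inside the annotated gene and are not printed.
Lrrc8b: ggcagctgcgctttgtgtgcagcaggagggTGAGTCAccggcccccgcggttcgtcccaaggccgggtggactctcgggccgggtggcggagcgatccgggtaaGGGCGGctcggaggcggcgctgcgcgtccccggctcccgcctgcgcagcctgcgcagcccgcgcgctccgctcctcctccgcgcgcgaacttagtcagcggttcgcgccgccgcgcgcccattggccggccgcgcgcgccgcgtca
Lrrc8c: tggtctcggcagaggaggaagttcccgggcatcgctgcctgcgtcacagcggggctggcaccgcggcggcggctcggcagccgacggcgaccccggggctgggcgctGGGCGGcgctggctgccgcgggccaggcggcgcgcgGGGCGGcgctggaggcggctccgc
Lrrc8d: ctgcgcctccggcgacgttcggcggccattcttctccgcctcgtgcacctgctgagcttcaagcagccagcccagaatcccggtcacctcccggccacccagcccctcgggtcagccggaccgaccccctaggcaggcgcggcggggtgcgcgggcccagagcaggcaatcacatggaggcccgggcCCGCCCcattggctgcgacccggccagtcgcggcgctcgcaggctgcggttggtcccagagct
All 3 windows hold at least 1 GC box and only the Lrrc8b window an AP-1 match. Over the whole 250 bases their G and C content was 77.2%, 78.4% and 73.2%. The mean was 53.0% over the first window of each gene in the RefSeq table.

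**Figure D3:**
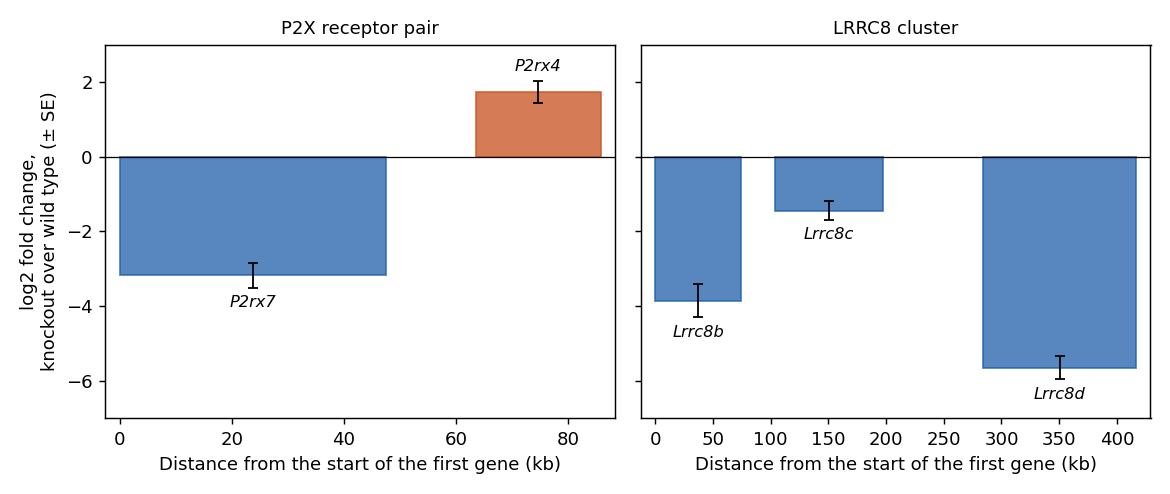
Log2 fold change, knockout over wild type, of channel genes that are neighbours on chromosome 5, drawn as boxes from each gene's start to its end in kb from the start of the first gene; the height is the fold change and the black bars are its standard error. P2rx7 lies below 0 at -3.17 and P2rx4 above it at 1.73, while Lrrc8b, Lrrc8c and Lrrc8d are all below 0.

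Of the 63 genes 53 had a RefSeq promoter window with matching strand, 2 of them being the untested genes. GC boxes were in 5 of 11 windows of higher genes, 11 of 17 of lower genes and 14 of 23 of genes not called, against 32.9% of 27025 promoters of this length. AP-1 matches were in 0 of 11, 2 of 17 (Lrrc8b and P2rx7) and 2 of 23, against 6.87%. The windows of the set were those nearest the annotated gene start, whereas the 27025 promoters were the first window of each RefSeq gene. The latter include genes outside the expression table, so the shares are not from windows chosen alike. Some windows of the set lay inside the annotated gene, that of Kcnh2 at 22013 bases from its start. These are matches of letters on either strand, the 2 motifs do not overlap in the windows printed, and they show no binding.

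Chloride channels of the CLC family were not called with 1 exception. Clcn3, an exchanger of endosomes and synaptic vesicles (chr8:60910389-60983300), was at 21.3 and 24.6 in wild-type and 3.90, 4.99 and 4.16 in knockout libraries. The knockout libraries were close together well below the wild type, and the level was 5.28-fold lower (log2 fold change -2.28 ± 0.29, adjusted p = 0.00182). The other 5 were not called: Clcn7, the lysosomal exchanger, was at 46.3 ± 16.9 in wild-type and 67.5 ± 27.4 in knockout libraries, Clcn4 at 67.4 ± 0.0271 in wild-type and 83.6 ± 9.71 in knockout libraries, and Clcn2, Clcn5 and Clcn6 had means between 5.68 and 11.7. The groups of Clcn4 did not overlap, and an antisense gene covers 11.5% of its exon bases. Clic1 and Clic4, proteins that exist both free in the cytosol and in membranes, had the highest level per kilobase of all 59 channel genes in both genotypes. Clic1 was at 602 and 387 in wild-type and 684, 589.9 and 347 in knockout libraries and Clic4 at 288 and 471 in wild-type and 425, 429.5 and 537 in knockout libraries. In both genes the genotypes overlapped, with SE the lowest library of each genotype for Clic1 and the highest for Clic4, and neither was called (adjusted p = 0.856 and 0.428).

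Anoctamins are calcium-activated chloride channels or lipid scramblases. Ano1, the classical calcium-activated chloride channel (chr7:144588549-144751974), was at 14.9 and 32.7 in wild-type and 0, 0.151 and 0.143 in knockout libraries. It had 999 reads over the 2 wild-type libraries and 6 over the 3 knockout libraries, none of them in C1, and the ratio of means was 242-fold (log2 fold change -5.25 ± 0.40, adjusted p = 0.000266), or 151 without wild-type SE. Ano5, which functions in muscle membrane repair, had no knockout read against 1.52 ± 0.487 in the wild type, at least 9.71-fold lower (adjusted p = 0.00196). Ano10 (chr9:122175874-122294423), known from hereditary ataxia, moved the other way, at 69.8 and 73.9 in wild-type and 218, 269 and 224 in knockout libraries. Its libraries were even within each genotype, and the level was 3.29-fold higher (log2 fold change 1.71 ± 0.21, adjusted p = 0.00168). Ano6, the phospholipid scramblase of activated platelets, was at 104 and 204 in wild-type and 93.0, 105 and 232 in knockout libraries, highest in the SE library of each genotype and overlapping between genotypes. It was not called (adjusted p = 0.840), nor were Ano8, at 34.4 ± 19.2 in wild-type and 33.7 ± 21.04 in knockout libraries, and Ano3, at 3.89 ± 0.285 in wild-type and 8.62 ± 3.71 in knockout libraries, whose groups did not overlap.

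The 7 lower genes that were at 1 or more in the wild type only (Kcnq5, Ano1, Kcnh2, Kcna4, Lrrc8d, Ano5 and Cacnb2) failed the filter whenever a wild-type library was left out, so that their calls could not be tested in those fits. Leaving out a knockout library kept each of their calls.

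On the scale of normalised counts per kilobase of exon, which allows genes to be compared with each other, the order of the 59 channel genes differed between genotypes. Kcnn4 had rank 3 in the wild type at 50.9 and rank 23 in the knockout at 1.37. Trpv2 went from rank 48 (0.313) to rank 6 (17.9) and P2rx4 from rank 12 (6.13) to rank 5 (20.7). Lrrc8d went from rank 15 (4.81) to rank 53 (0.0578) and Ano1 from rank 19 (3.81) to rank 55 (0.0157). Clic1 (275 and 300.4) and Clic4 (57.8 and 70.6) held the first 2 ranks in both. Summed over all 59 genes, normalised counts ran from 2127 to 2561 per library, 2143 and 2367 in the wild type and 2127, 2264 and 2561 in the knockout, so that the groups overlapped. Clic1 and Clic4, neither of them called, made up a large part of these sums. They were at 602 and 288 in wild-type C1 and at 684 and 425 in knockout C1.

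Differences between libraries of one genotype followed the SE and C names for part of the set. The SE libraries of both genotypes lay above every C library for 13 of the 57 tested channel genes (22.8%, against 16.2% of all tested genes) and below them for 2 (3.51%, against 12.6%). Genotype groups overlap by construction in such genes, and none of them was called. Itpr3 was at 11.8 and 28.1 in wild-type and 6.49, 10.2 and 53.6 in knockout libraries, 2.38-fold higher in SE than in C1 in the wild type and 6.43-fold higher than the mean of C1 and C2 in the knockout. The same ratios were 3.01 and 5.49 for Piezo1, 3.92 and 4.62 for Clcn6, 1.86 and 4.81 for Cacna1a, and 1.95 and 2.34 for Ano6. Clcn2, Clcn5, Trpc1, Trpm4, Trpm7, Ano8, Cacna1c and Clic4 were the other channel genes on the higher side, and Clic1 and Kcne4 those on the lower. Of the called genes, Kcnd1 had ratios of 1.99 and 2.94, and Kcnn4 of 0.712 and 0.412. With the C or SE name as a second term in the fit, 20 of the 61 genes (32.8%) were called higher, against 28.3% of all tested genes, and 21 (34.4%) lower, against 32.3%, which is near the background. All 31 genes called without this term were among them. The 10 added were P2rx5, Hcn2, Itpr1, Clcn7, Clic4 and Ano3 on the higher side and Kcnab3, Cacnb1, Cacna1c and Trp53 on the lower.

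**Figure D4:**
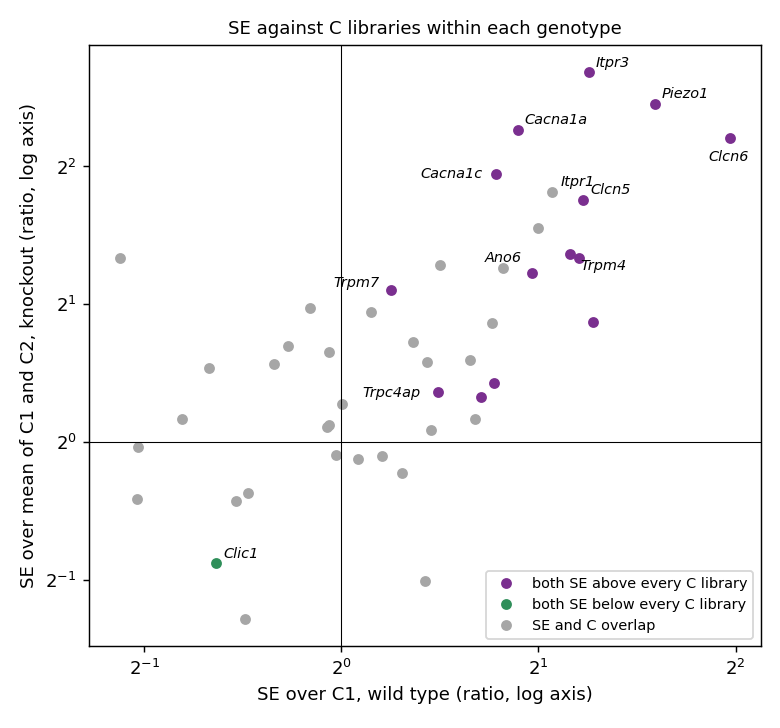
Ratio of the SE library to the C libraries for 46 tested genes with a mean of at least 1 in both genotypes, in the wild type (horizontal, SE over C1) and in the knockout (vertical, SE over the mean of C1 and C2), on log axes; purple and green mark genes whose SE libraries both lie above or below every C library, Trpc4ap, which is no channel gene, among the purple. Itpr3, Piezo1, Cacna1a and Clcn6 lie farthest to the upper right, with knockout ratios from 4.62 to 6.43, and Clic1 lies to the lower left.

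Of the 4 genes that only share the letters, Kcnq1ot1, a paternally expressed noncoding RNA antisense to the channel gene Kcnq1, was lower at 3.797 ± 1.85 in wild-type and 1.31 ± 0.332 in knockout libraries (adjusted p = 0.0473). This was 1.89-fold without wild-type C1 instead of 2.89-fold, and its call was lost in each of the 5 fits that left out a library (adjusted p from 0.0593 to 0.340; range 0.00989 to 0.340 over 17 alternatives). Trp53, the tumour suppressor p53, was at 274 and 189.6 in wild-type and 152, 128 and 104 in knockout libraries. Its groups did not overlap, and it missed the threshold (log2 fold change -0.85 ± 0.27, adjusted p = 0.0525). Trpc4ap was at 218 and 306 in wild-type and 261, 276 and 347 in knockout libraries, overlapping between genotypes, and Trp63 at 3.46 ± 1.81 in wild-type and 5.78 ± 3.55 in knockout libraries, and neither was called.

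Other genes that move ions or read the calcium signal were described from 4 lists, beside the 17.2% and 17.1% of all tested genes called higher and lower and their median of -0.09. Of 37 other channel and pore genes in the table, 6 were called higher and 11 lower, with a median log2 fold change of -0.39. Chrna1, the muscle acetylcholine receptor pore, was at 29.2 and 23.7 in wild-type and 0, 0 and 0.0717 in knockout libraries. The last of these values is the only knockout read, against 1179 in the wild type, and the ratio of read rates was 1653 with a 95% interval of 296 to 65339 (adjusted p = 7.06e-05). Gria3, an AMPA-type glutamate receptor subunit, was at 1.42 and 1.45 in wild-type and 74.1, 51.7 and 120.1 in knockout libraries (57.1-fold higher, adjusted p = 0.000254). Aqp5, a water channel, was at 5.51 and 4.25 in wild-type and 0, 0.0757 and 0.0717 in knockout libraries, 218 reads against 3, with a ratio of read rates of 102 and an interval of 34.4 to 498 (adjusted p = 0.000318). Asic3, an acid-gated sodium channel, moved the other way, at 0 and 0.104 in wild-type and 4.66, 4.09 and 5.66 in knockout libraries, 2 reads against 286, with a ratio of 102 and an interval of 28.0 to 846 (adjusted p = 0.000430).

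Of 22 genes of store-operated entry and calcium pumping, 3 were higher and 3 lower, with a median of -0.04. The plasma membrane calcium pumps moved in opposite directions, Atp2b4 at 0.324 and 0.466 in wild-type and 9.97, 8.85 and 15.9 in knockout libraries and Atp2b1 at 248 and 232 in wild-type and 102, 87.3 and 121 in knockout libraries (adjusted p = 0.000574 and 0.00814). Slc8b1, the mitochondrial sodium and calcium exchanger, was at 14.7 and 17.6 in wild-type and 0.752, 1.74 and 2.01 in knockout libraries (10.8-fold lower, adjusted p = 0.00173), and Jph2, which ties the endoplasmic reticulum to the plasma membrane, at 0.122 and 0.104 in wild-type and 10.02, 2.65 and 22.5 in knockout libraries (adjusted p = 0.0103), with a knockout value in C2 far below the other 2. Of 17 pumps and cotransporters for sodium, potassium and chloride, 1 was higher and 2 lower, with a median of -0.11. The bicarbonate cotransporter Slc4a7 was at 33.7 and 45.7 in wild-type and 4.37, 7.68 and 11.3 in knockout libraries (5.10-fold lower, adjusted p = 0.00732), and Atp1b1, a beta subunit of the sodium pump, was higher at 0.527 and 0.155 in wild-type and 2.54, 1.85 and 1.43 in knockout libraries (adjusted p = 0.0143). Fxyd5, a regulator of the pump, was at 183 and 88.4 in wild-type and 73.4, 61.2 and 22.2 in knockout libraries and was not called (adjusted p = 0.0940).

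Of 31 calcium sensors and calcineurin pathway genes, 8 were higher and 6 lower, with a median of -0.11. Plce1, a phospholipase C that makes IP3, had no wild-type read and was at 5.41, 5.11 and 7.09 in the knockout libraries, at least 42.4-fold higher (adjusted p = 0.000292). The calmodulin-dependent kinases Camk4, at 10.1 and 6.79 in wild-type and 0.517, 0.227 and 0.860 in knockout libraries, and Camk1d, at 31.5 and 30.7 in wild-type and 8.09, 6.20 and 11.3 in knockout libraries, were 15.8-fold and 3.64-fold lower (adjusted p = 0.00139 and 0.00699), and Camk2b was at 1.70 and 2.49 in wild-type and 0.0940, 0 and 0 in knockout libraries, 90 reads against 2, with a ratio of read rates of 63.1 and a 95% interval of 17.0 to 529 (adjusted p = 0.00130). Among the higher genes were Nfatc1 and Nfatc4, transcription factors that calcineurin moves to the nucleus, and Rcan1 and Rcan2, its inhibitors. Of calcineurin itself, the subunit gene Ppp3r1 was called lower, with means of 144.8 in wild-type and 75.1 in knockout libraries (adjusted p = 0.0339). Ppp3ca, Ppp3cb and Ppp3cc were not called, and neither was Nfatc3.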

How the data were processed

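Messenger RNA libraries were made with a stranded kit and read as 75-base single ends, per the labels' protocols. The submitters' processing notes name edgeR, featureCounts 1.5.2 and STAR 2.5, while build, annotation and use of strand are not given in the sources used here. The deposited values are a signal: the authors divided gene read counts by a TMM-scaled library size, on the CPM scale. Dividing by the value of 1 read gave whole numbers, to 0.02, for 100% of entries.

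The main test was limma 3.58.1 (trend) on log2 of the value plus 0.5, for genes at 1 or more in at least 2 libraries, with genotype as the only term, 3 residual degrees of freedom, Benjamini-Hochberg adjustment over 12484 genes and a threshold of 0.05. Folds are ratios of group means. For 0 reads a limit of 3 reads per library was used, and for 1 to 3 reads an exact 95% interval of the rate ratio, both covering counting error only. Fits were tested on simulated data.

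Every library's value was given for called genes whose groups did not overlap and whose mean reached 5 in a genotype and for the 8 most abundant genes, and of each list for up to 4 genes with the smallest p. Counts cover the whole set and lists, but 2 called genes are not reported here and are left out of the plots. The channel genes, the lists and the markers were chosen with earlier results of these data known. Coordinates are from GENCODE M21 (GRCm38) and promoters from RefSeq (GRCm38.p6). Alternatives used other scalings, pseudocounts, filters and variance fits, edgeR 4.0.16 and DESeq2 1.42.0 on recovered reads, the C or SE name as a term, and fewer libraries. Calculations used R 4.3.3 and Python 3.11.15.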

Additional observations from a re-analysis of the deposited data

How the results depend on the processing

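With a filter at 5, 41 genes of the set were tested, 8 of them called higher (19.5%, against 15.4% of all genes tested) and 12 lower (29.3%, against 16.3%). Leaving out 1 library in turn gave 9 to 15 higher and 7 to 18 lower genes of the set, and genes called over the whole table numbered 1676 to 4964, against 4279 with all libraries. The lowest counts came without wild-type SE, and 7 lower genes of the set then failed the filter. Without knockout C1, 24.6% of the tested genes of the set were higher and 26.2% lower, against 13.7% and 13.2% of all genes tested. Without knockout C2 these shares were 18.3% and 25%, against 11.9% and 10.4%. Without knockout SE they were 21.7% and 30%, against 19.0% and 21.4%. No shares are given without a wild-type library, because 1 library is then left in that group. With the C or SE name as a term, 7568 genes were called over the whole table, 60.6% of those tested, against 67.2% of the set. Without both SE libraries 1 wild-type library is likewise left, so no shares are given for that fit either. In it 53 genes of the set were tested, and 8 of the 31 called genes failed the filter. Robust estimation, eBayes without a trend, no filter, edgeR and DESeq2 kept all 31 calls of the set. TMM rescaling did so too, but the deposited values are already TMM-scaled. It had to return the same calls and tells nothing about how stable they are. DESeq2 added Hcn2, Itpr1, Ano3 and, with no filter, Kcnk5 and Kcnj15, limma with no filter added Kcnk5, and no trend added Cacnb1. Quantile normalisation, which added Kcnab3 and Trp53, and a pseudocount of 1 lost Kcnk3, and median-of-ratios scaling and a pseudocount of 0.1 lost Kcnq1ot1. No fitted change of a gene of the set turned its sign where it was called. No paired analysis was possible because the column names carry none of the replicate numbers in the sample titles, and the C or SE name, fitted as a term above, is not stated to pair libraries. Genes under about 1 on the CPM scale in every library were not in the table, and low genes rest on few reads.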
